A study of Mus musculus with 38 samples.

Results

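HSF1 bound 1726 sites in JM8 mouse embryonic stem cells, and 515 of them overlapped, by at least 1 bp, no site on the HSF2 list and no site on the SOX2 list used in the same study. These 515 HSF1-only sites were divided by position into 212 within 1 kb of the start of a protein-coding transcript and 303 farther away (GENCODE M21 basic, mm10). The other HSF1 sites overlapped HSF2 without SOX2 (647), SOX2 without HSF2 (328) or both (236). HSF1 was profiled with an anti-HSF1 antibody by CUT&Tag, in which protein A fused to the Tn5 transposase inserts adapters beside the bound protein. Asynchronous (A) JM8 cells were an unsynchronised culture. Mitotic (M) cells of the same line were held in nocodazole, which blocks spindle assembly, at 50 ng/ml for 6 h and then shaken off the plate. No transgene or heat treatment is given for either population, and the drug and the phase cannot be told apart. Each phase had 2 libraries. The values used here average them into 1 value per site, so they hold no replicate spread, and no test between phases was made. Read totals were not analysed here, and the table gave no IgG value. A site counts as HSF1-only because no HSF2 or SOX2 interval was listed there, which does not show that either factor was absent.

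HSF1 is the main activator of the heat shock response. It binds as a trimer to heat shock elements, inverted repeats of a short GAA unit, and in unstressed cells it also occupies promoters of chaperone and housekeeping genes. HSF2 is a paralogue with a related DNA-binding domain, and SOX2 is a pluripotency factor that recognises other DNA. In mitosis a transcription factor may leave its sites on the chromosomes or stay on them.

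A heat shock element was defined as 3 inverted units, GAANNTTCNNGAA or TTCNNGAANNTTC, where N is any base. The 2 forms are each other's reverse complement, so both strands were searched, and matches may overlap in a longer run. Elements of 9 HSF1-only sites are given below because they link the sites to the known recognition sequence. St13, Eif4a2, Polr2a, Dnajb5, Fbxl14 and Adgrl2 are among the 10 strongest sites with an element, and Ube2g2, Prdx6 and Gpr161 were added after their values were seen. Element bases are in capitals, and the sequences are of GRCm38, printed on the coding strand of the named gene for sites near its start and on the plus strand for the others.
St13, chr15:81399811-81399823, minus strand, in an exon: TTCTAGAAGGTTC
Eif4a2, chr16:23107927-23107987, plus strand: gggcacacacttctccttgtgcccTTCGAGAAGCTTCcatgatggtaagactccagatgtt
Polr2a, chr11:69759061-69759121, minus strand: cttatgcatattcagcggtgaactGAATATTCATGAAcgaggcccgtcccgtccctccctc
Dnajb5, chr4:42949454-42949514, plus strand: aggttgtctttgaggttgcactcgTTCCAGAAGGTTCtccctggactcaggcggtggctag
Fbxl14, chr6:119478849-119478914, plus strand: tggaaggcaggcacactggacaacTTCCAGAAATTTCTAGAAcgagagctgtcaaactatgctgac
Ube2g2, chr10:77622126-77622186, plus strand: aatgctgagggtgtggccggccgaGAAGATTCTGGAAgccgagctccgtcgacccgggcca
Adgrl2 far site, chr3:149117465-149117525, plus strand: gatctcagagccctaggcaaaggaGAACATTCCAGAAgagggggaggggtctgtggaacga
Prdx6 far site, chr1:161270935-161270995, plus strand: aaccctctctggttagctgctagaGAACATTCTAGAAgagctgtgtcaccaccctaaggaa
Gpr161 far site, chr1:165291707-165291767, plus strand: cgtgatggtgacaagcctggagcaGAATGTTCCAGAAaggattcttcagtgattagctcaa

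Relative to the coding start, the centre of the element stood at -454 bp at Polr2a, at -383 bp at Dnajb5 and at -119 bp at Ube2g2. At Eif4a2 it stood at 165 bp and at St13 at 226 bp inside the transcribed region. At Fbxl14, a gene for an F-box ubiquitin ligase subunit, 2 overlapping elements formed a run of 18 bp.

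Many of the strongest HSF1-only sites had sequence that recurs in the genome. Another copy elsewhere on the chromosomes (at least 100 bp at 90% identity or more) was found for 62 far sites, and 13 of these belonged to 2 groups of related sequence, of 9 and 4 sites. The 2 pairs below show how close the copies are, with bases identical within a pair in capitals.
Mphosph8 far site, chr14:56693996-56694184, plus strand: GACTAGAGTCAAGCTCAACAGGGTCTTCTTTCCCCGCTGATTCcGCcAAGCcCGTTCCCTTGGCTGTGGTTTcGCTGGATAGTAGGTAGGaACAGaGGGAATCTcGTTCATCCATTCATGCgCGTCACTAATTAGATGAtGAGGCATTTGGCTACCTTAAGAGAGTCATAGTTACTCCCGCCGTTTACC
Dnah7b far site, chr1:46075937-46076181, plus strand: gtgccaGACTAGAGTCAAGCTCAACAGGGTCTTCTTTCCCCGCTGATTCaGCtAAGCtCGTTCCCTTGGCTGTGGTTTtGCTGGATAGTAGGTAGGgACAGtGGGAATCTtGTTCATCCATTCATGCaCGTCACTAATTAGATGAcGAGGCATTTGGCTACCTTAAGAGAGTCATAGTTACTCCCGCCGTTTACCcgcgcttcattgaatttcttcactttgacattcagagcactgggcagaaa
Kcnip1 far site, chr11:33754811-33755043, plus strand: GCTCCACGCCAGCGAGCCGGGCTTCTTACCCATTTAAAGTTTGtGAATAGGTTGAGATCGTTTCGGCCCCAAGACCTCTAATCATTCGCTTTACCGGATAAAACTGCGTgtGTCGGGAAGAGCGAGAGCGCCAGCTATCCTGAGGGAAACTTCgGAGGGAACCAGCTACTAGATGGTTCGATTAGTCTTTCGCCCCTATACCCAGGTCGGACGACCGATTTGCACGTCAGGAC
Cntnap2 far site, chr6:44792931-44793230, minus strand: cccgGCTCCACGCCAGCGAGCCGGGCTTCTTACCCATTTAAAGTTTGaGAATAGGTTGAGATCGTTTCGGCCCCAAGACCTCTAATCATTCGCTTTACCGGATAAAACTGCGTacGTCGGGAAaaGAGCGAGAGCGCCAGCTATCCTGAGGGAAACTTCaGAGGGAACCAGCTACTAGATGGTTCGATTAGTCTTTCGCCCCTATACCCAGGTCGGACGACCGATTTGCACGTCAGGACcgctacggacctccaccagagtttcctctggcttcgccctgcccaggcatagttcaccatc

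The first pair, in introns of Mphosph8 and Dnah7b, matched at 95.2% over 189 bp. The second pair, in an intron of Kcnip1 and between genes near Cntnap2, matched at 97.4% over 235 bp. For the Cntnap2 site 300 of its 367 bp are shown. None of the 4 sites held a heat shock element as defined here. What these repeated sequences are was not established. The annotation used here holds only 420 bases of the ribosomal RNA gene Rn28s1, which matched 0 HSF1-only sites, so whether they are copies of ribosomal RNA genes, and whether reads from such genes add to their signal, was not tested.

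HSF1 signal was lower in mitosis at most HSF1-only sites in both position classes. The median signal near a coding start was 6.44 in asynchronous cells (95% interval over sites 5.71 to 7.08) and 4.16 in mitotic cells (3.89 to 4.71). The median far from a coding start was 3.51 in asynchronous cells (3.10 to 4.07) and 2.25 in mitotic cells (1.97 to 2.76). The signal is the average spike-in-scaled coverage over a site, in arbitrary units. The median log2 M/A, the log2 of mitotic over asynchronous signal, was -0.60 near (-0.68 to -0.53) and -0.63 far (-0.72 to -0.55). These intervals overlap, and they describe the spread over sites of 1 averaged track per phase, not the error between cultures. Over all 515 sites the median was -0.62 (-0.66 to -0.56), a mitotic signal of 65.1% of the asynchronous one. With the other signal pair, that of the peak list, the same median was -2.33. The values of that pair carry no phase label, so their order was taken as asynchronous, then mitotic. After centring on the weakest quartile of all HSF1 sites the median was -0.0252 (-0.07 to 0.03). The size thus depended on the signal pair and on the centring. After centring, no direction was left relative to those weak sites. They include HSF1-only sites and had a median of -0.59 themselves. Centring therefore removes a decrease that HSF1 sites share and cannot show whether there was one.

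Mitotic signal was below asynchronous signal at 198 of 212 near sites (93.4%) and at 251 of 303 far sites (82.8%). The same held for 91.9% of all 1726 HSF1 sites, 94.9% of the near and 89.1% of the far ones. It was at least 2-fold lower at 28 near sites (13.2%) and at 74 far sites (24.4%), against 17.7% of all HSF1 sites. By position that share was 11.9% of all near and 23.0% of all far HSF1 sites. Mitotic signal was higher at 14 near sites (6.6%) and at 52 far sites (17.2%). This compares with 8.11% of all HSF1 sites, 5.05% of the near and 10.9% of the far ones. It was at least 2-fold higher at 1 near and 6 far sites, against 0.521% of all HSF1 sites. The far sites were thus the more spread of the 2 classes in both directions, with an interquartile range of log2 M/A of 0.77 against 0.52 near a start.

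**Figure D1:**
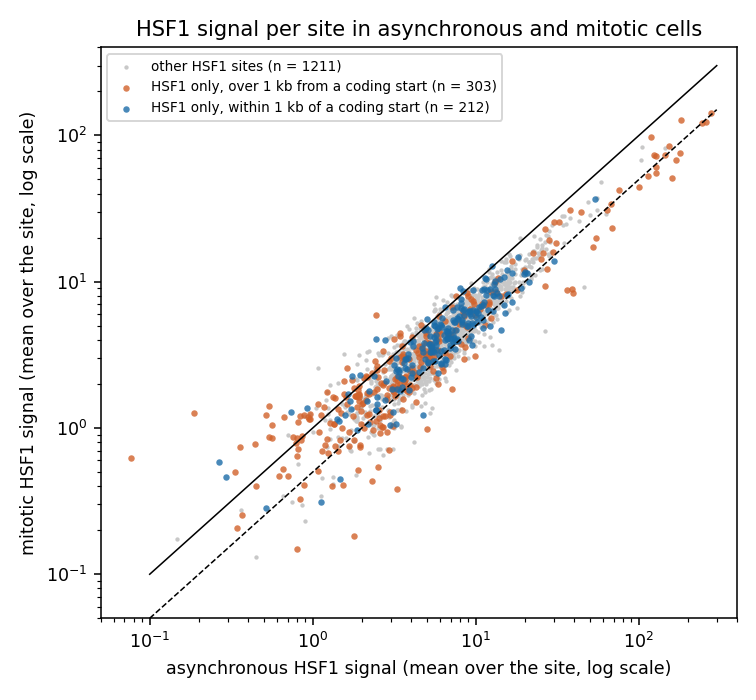
Mean HSF1 signal per site in asynchronous (x) and mitotic (y) cells, both on log axes, for 212 HSF1-only sites near a coding start, 303 far ones and all other HSF1 sites. The solid line marks equal signal and the dashed line a 2-fold lower mitotic signal; the far sites reach both ends of the range, from an asynchronous signal of 0.0769 to 276.8.

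The median HSF1 signal of HSF1-only sites was below that of sites shared with HSF2, whereas the mean over all far sites was above theirs. Near a coding start the asynchronous median was 6.44 for HSF1-only sites and 8.38 for the 454 sites with HSF2 and no SOX2, and the median widths were 1632.5 and 2015 bp. Far from a start the asynchronous medians were 3.51 and 5.19 and the means 15.0 and 10.6. The HSF1-only mean was 99.5 over the 34 far sites with a mean of both phases over 20. It was 4.33 over the other 269, and 5.67 over the 236 far sites without another copy of their sequence. No mean divided in this way is given for the sites with HSF2. The median log2 M/A of the near and far sites with HSF2 and no SOX2 was -0.65 in each case. The 275 far sites with SOX2 and no HSF2 had a median log2 M/A of -0.61, and the 53 near ones -0.47 (-0.66 to -0.29). The median ratio therefore differed little between HSF1-only sites and the other classes. The interquartile range at far sites was 0.77 for HSF1-only sites, 0.59 with HSF2 alone, 0.69 with SOX2 alone and 0.53 with both. HSF1-only sites were also the weakest of these far classes, with a median mean signal of 2.91 against 4.43, 3.78 and 5.02. The range was wider at low signal. From the weakest to the strongest quartile it went from 1.16 to 0.60 for far HSF1-only sites and from 0.82 to 0.43 for all other far sites. These are descriptions over sites with no test.

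**Figure D2:**
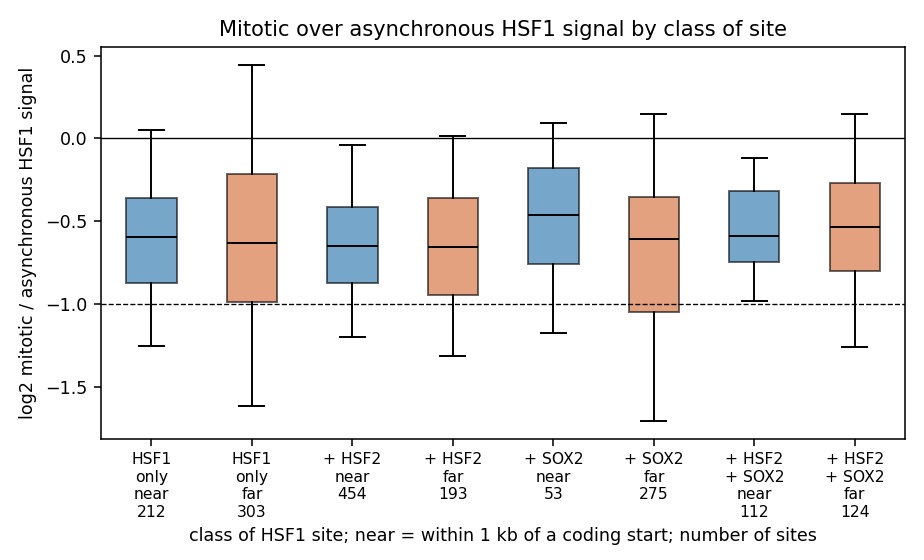
Log2 mitotic over asynchronous HSF1 signal (y) for the 4 classes of HSF1 site (x), each divided by distance to a coding start (blue, within 1 kb; orange, over 1 kb), with the number of sites under each box. Boxes span the quartiles with the median as a line, whiskers the 5th to 95th percentile; the HSF1-only far sites have a median of -0.63 and an interquartile range of 0.77, more than the 0.52 of the near ones.

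At coding starts the strongest HSF1-only site lay at St13, the gene of an HSP70-interacting co-chaperone, which it shares with the opposite gene Xpnpep3. The site, chr15:81398737-81401267, had a signal of 53.8 in asynchronous cells and of 36.7 in mitosis (log2 M/A -0.55). Its middle fell in an exon of St13 and it held the element shown above. The next strongest, at Tfb2m and Cnst, chr1:179545395-179546972, had 30.0 and 13.8 (log2 M/A -1.12). Tfb2m encodes a mitochondrial transcription factor. St13 thus stood well above the rest of the class, and only these 2 near sites had a mean of both phases over 20, against 34 far sites.

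The next 8 near sites ranged from 15.6 to 21.2 in asynchronous cells and from 9.09 to 14.6 in mitotic cells. Chchd7, a gene for a mitochondrial protein that shares its start with Plag1, had 18.2 and 14.6 (chr4:3938524-3939482). The zinc finger genes Zbtb37, Zbtb2 and Zkscan5 had 20.6, 19.9 and 21.2 in asynchronous cells and 11.5, 11.7 and 9.88 in mitotic cells. Ncbp3, for a protein that binds the mRNA cap, had 19.8 and 11.4 (chr11:73047243-73049476). Ccdc114, for a cilium protein, had 16.7 and 11.5. At the shared start of Nkiras2 and Dnajc7, a co-chaperone of HSP70 and HSP90, HSF1 gave 18.95 and 9.09 (chr11:100618628-100620397). Frat1, a Wnt pathway gene, had 15.6 and 12.1. All 10 of the strongest near sites had the lower value in mitosis, as did 99.4% of the strongest quartile of the other near HSF1 sites. Their log2 M/A ran from -1.12 at Tfb2m to -0.32 at Chchd7, and 1 of the 10, St13, held a heat shock element.

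**Figure D3:**
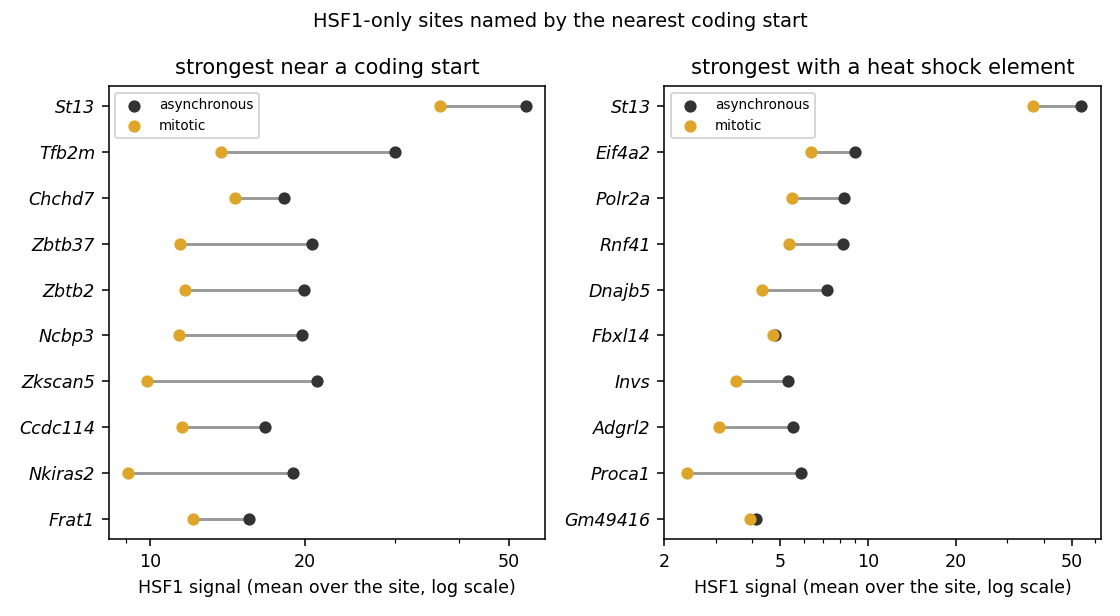
HSF1 signal (x, log axis) in asynchronous (black) and mitotic (yellow) cells for the 10 strongest HSF1-only sites near a coding start (left) and the 10 strongest with a heat shock element (right), named by the nearest coding start; grey lines join the phases. St13, at 53.8 and 36.7, is the top site of both panels, and the mitotic point lies to the left at every site shown.

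Among near sites with a mean of both phases at or above the HSF1-only median, the largest decrease was at Aagab and Iqch, from 14.4 to 4.70 (log2 M/A -1.61; chr9:63602129-63603077). B4galt1, a galactosyltransferase gene, went from 9.53 to 3.69 (-1.37), and Eef1akmt2, for a methyltransferase of elongation factor 1A, from 15.1 to 6.09 (-1.31). Proca1 went from 5.87 to 2.39 (-1.30) and the start of Eif2s1 and Atp6v1d from 12.1 to 4.97 (-1.29). Eif2s1 encodes the translation initiation subunit that is phosphorylated in stress. At the other end, several sites had a mitotic value slightly above the asynchronous one. Tada3, for an adaptor of histone acetyltransferase complexes, had 8.002 and 9.06 (0.18; chr6:113377393-113378580). Rest, for a repressor of neuronal genes, had 8.33 and 8.70 (0.06; chr5:77265329-77266508), Slc2a1, the glucose transporter gene GLUT1, 6.49 and 6.67 (0.04), and Gatad2b, for a subunit of the NuRD complex, 12.6 and 12.8 (0.02). These near sites thus ran from 32.8% of the asynchronous signal at Aagab to 113.2% at Tada3, and no replicate value shows whether these small increases exceed the error.

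A start of 239 coding genes lay within 1 kb of an HSF1-only site, which is 24.1% of the 991 coding genes with any HSF1 site so placed. Those 991 were 4.54% of all 21840 coding genes. The chaperone list had HSF1 sites at 30 of its 102 genes and HSF1-only sites at 3 of them. These were Dnajc7, given above, Dnajb5, an HSP40 family gene, with 7.23 and 4.34 (log2 M/A -0.74), and Dnaja4, of the same family, with 1.46 and 0.45 (-1.70). Histone genes had HSF1 sites at 50 of 82, the highest share of the 12 lists, and HSF1-only sites at 6. Those 6 genes lay at 3 sites. The strongest, over Hist1h2ai, Hist1h2bl and Hist1h3h, had 10.7 and 6.83 (-0.65), the site at the linker histone gene Hist1h1a had 6.79 and 4.39 (-0.63), and the site at Hist1h2bh and Hist1h3f had 5.58 and 4.99 (-0.16). Against 24.1% of all bound coding genes, 10% of the bound chaperone genes and 12% of the bound histone genes thus fell inside the HSF1-only class.

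Of the bound genes of the ribosomal protein and translation lists, 42.9% and 57.1% fell inside it, against 24.1% of all bound coding genes. Of 14 ribosomal protein genes with an HSF1 site, 6 had an HSF1-only one, Rps27l at 13.4 and 8.31 (log2 M/A -0.69), Mrps14 at 11.01 and 5.43 (-1.02) and Rpl7l1 at 7.85 and 5.79 (-0.44) among them, with weaker signal at Rpl10 (5.46 and 2.88) and Rpl30 (3.89 and 1.82). Of 7 translation factor genes, 4 had one, among them Eif4a2, an RNA helicase of translation initiation, at 9.03 and 6.35 (-0.51), and Eif4enif1, for an eIF4E transport protein, at 7.35 and 5.30 (-0.47). These lists are small, and by symbol Rps27l, Rpl7l1 and Eef1akmt2 enter without being core ribosomal proteins or factors. The 6 ribosomal protein sites and the 4 translation sites were all lower in mitosis, as were 93.4% of all near HSF1-only sites.

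The share of bound genes with an HSF1-only site was 23.5% (4 of 17) on the proteasome and ubiquitin list, 21.4% (3 of 14) for RNA processing, 33.3% (4 of 12) for the cell cycle, 25% (2 of 8) for chromatin, 21.7% (5 of 23) for Zfp genes and 37.5% (3 of 8) for mitochondria, around the 24.1% of all bound coding genes. The proteasome and ubiquitin sites had log2 M/A from -1.94 to -0.54. The deubiquitinase genes Usp9x, Usp3 and Usp34 had 8.99 and 6.18, 7.41 and 3.49, and 5.97 and 3.14 in asynchronous and mitotic cells. Ube2g2, a conjugating enzyme of protein disposal from the endoplasmic reticulum, had 4.71 and 1.23, the lowest log2 M/A of all near sites at -1.94. RNA processing genes had 3 sites, at Hnrnph1 (8.16 and 6.65), Lsm2 (2.20 and 1.07) and Ddx23 (1.87 and 0.96). The cell cycle list had 4, at Ccng1 (8.92 and 5.00), Cdk1 (6.43 and 2.96), Cdkl3 (4.07 and 2.37) and Cenpk (1.40 and 1.15). Cdk1, the kinase that drives entry into mitosis, had a log2 M/A of -1.12. Chromatin regulators had Kdm4a, a histone demethylase gene (11.5 and 8.13), and Dnmt1, the maintenance DNA methyltransferase gene (5.57 and 4.17). The Zfp genes had 5, led by Zfp963 (14.8 and 10.8), Zfp184 (9.63 and 8.81), Zfp1 (6.68 and 4.14) and Zfp747 (5.12 and 2.78). Mitochondrial genes had Tomm34 (9.36 and 5.82), Atp5g2 (5.48 and 3.36) and Tomm20l (3.72 and 2.94). No HSF1-only site lay at a gene of the pluripotency list, where 4 of 21 genes had an HSF1 site. The same held for the stress response list, where 3 of 65 did (4.62%, about the share of all coding genes). With 24.1% of all bound coding genes in the class, 4 and 3 bound genes are too few to read an absence from. The rule also leaves out every site that overlaps a listed SOX2 site.

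Away from coding starts the top of the range was taken by short, very strong sites. The 20 strongest HSF1-only sites were all far ones, and 11 far sites had a mean of both phases over 100, of 12 among all 1726 HSF1 sites. The 34 far sites with a mean over 20 had a median width of 651.5 bp, against 1741 bp for the other 269. These 34 sites had medians of 72.3 in asynchronous cells and 38.2 in mitosis, with a median log2 M/A of -0.98 (-1.17 to -0.76), against -0.59 (-0.66 to -0.47) for the others. All 34 were lower in mitosis, as were 95.9% of the strongest quartile of the other far HSF1 sites. Another copy of the sequence was found for 26 of the 34, and for 10 of the 11 with a mean over 100. Over all far sites the share was 20.5% for HSF1-only sites and 19.4% for all HSF1 sites, and 28 of the 48 strongest far sites with HSF2 and no SOX2 also had another copy. Whether reads from other copies contributed to these sites was not tested.

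The strongest of all, chr7:130834086-130834651, in an intron of the longest annotated Fgfr2 transcript and 31.1 kb from the start of Plekha1, had 276.8 in asynchronous and 141.5 in mitotic cells (log2 M/A -0.97). The site nearest to Cntnap2, chr6:44792931-44793297, had 257.7 and 123.2 (-1.06) and 18 matches elsewhere, and an intergenic site 26.0 kb from Rpp21, chr17:36231189-36231851, had 244.3 and 122.4 (-0.998). The Mphosph8 intron site had 181.8 and 127.6 (-0.51), and the Dnah7b intron site 153.2 and 84.7 (-0.86). The sites nearest to Mc2r, Alkbh8, Zfp608 and Cdh20 had 179.4, 169.98, 144.2 and 159.4 in asynchronous cells and 76.2, 68.3, 73.5 and 51.4 in mitotic cells. One of the 10 strongest, chr16:61056334-61056482, 149 bp wide and 451.1 kb from Epha6, had no other copy by the same criterion and kept most of its signal, with 118.3 and 96.8 (-0.29). Within the group of 9 sites that includes the Cntnap2 and Kcnip1 sequences, log2 M/A ran from -1.50 to -0.81, and all 9 HSF1 sites of that group were HSF1-only. In the group of the Mphosph8 and Dnah7b sequences, 4 of 5 HSF1 sites were HSF1-only, with log2 M/A from -0.97 to -0.51.

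**Figure D4:**
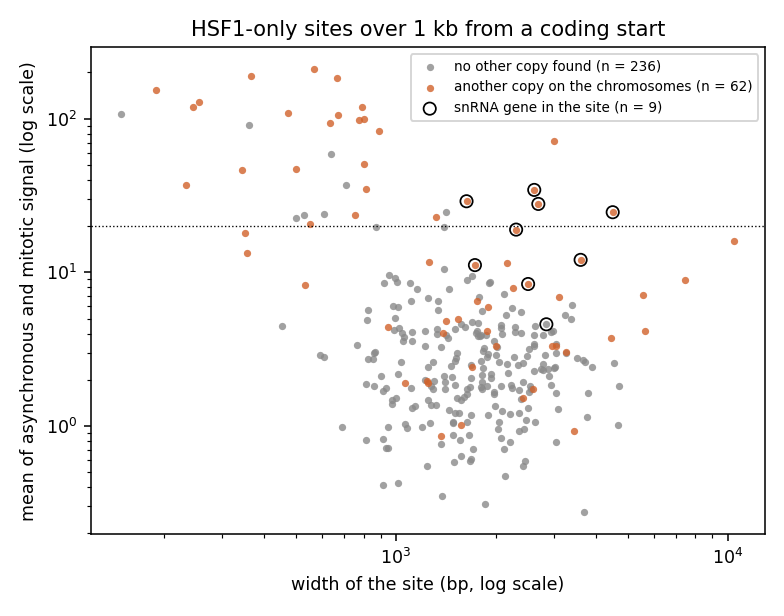
Width of each HSF1-only site over 1 kb from a coding start (x, bp) against its mean signal over both phases (y), both on log axes; orange marks the 62 sites with another copy of their sequence, grey the 236 without, and rings the 9 with an snRNA gene. The narrow sites at the top left, above the dotted line at 20, are mostly orange.

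Some far sites held genes for small RNAs. A small RNA gene overlapped 21 far sites (6.93%) and 6 near ones (2.83%), against 8.38% and 5.54% of all far and near HSF1 sites and 13.99% of far sites with HSF2 and no SOX2, so this was no trait of HSF1-only sites. By comparison, windows of equal width 2 kb to either side of the far sites overlapped one 4 and 9 times. Genes for U1, the spliceosomal RNA that pairs with the 5' splice site, lay in 5 HSF1-only sites, and genes for U2, which pairs with the branch point, in 3, each at least 95.2% identical to Rnu1b1 or 99.5% to Rnu2-10. Their signal in asynchronous and mitotic cells was 32.4 and 25.7 at the U1 copy Gm26444, 30.1 and 25.7 at Gm22068, 22.3 and 15.7 at Gm24305, 14.3 and 8.05 at Rnu1b1 and 9.79 and 7.02 at Rnu1b2. The U2 copies Gm24950, Gm23971 and Gm23472 had 37.7 and 31.1, 26.5 and 22.8, and 13.6 and 10.5. These sites kept more of their signal than most far sites, with a median log2 M/A of -0.33 over the 9 sites with an snRNA gene (-0.50 to -0.22, with single sites between -0.83 and -0.21), against -0.63 over all far sites. How much of the signal at 1 copy came from reads of another was not tested. HSF1 sites with an snRNA gene were also found with HSF2 alone (12), SOX2 alone (12) and both (6).

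A tRNA gene lay in 11 of 515 HSF1-only sites, and in 15 of 647 sites with HSF2 alone, 3 of 328 with SOX2 alone and 11 of 236 with both. The 11 sites had log2 M/A from -1.25 to 0.35, with a median signal of 4.75 in asynchronous and 3.04 in mitotic cells. The strongest held n-TLcag4 and n-TLcag5 (13.0 and 9.92). A miRNA gene lay in 6 HSF1-only sites. The strongest of these, far sites with Gm24187 and Mir6236, had 126.6 and 75.9 in asynchronous and 60.6 and 42.4 in mitotic cells. Their log2 M/A was -1.06 and -0.84. They were 635 and 640 bp wide, so they belong to the short, very strong far sites described above. The Gm24187 site had 8 matches elsewhere, and whether reads from those add to its signal was not tested. Another far site, chosen here after its values were seen, covered the miRNA genes from Mir290a to Mir295 (chr7:3217092-3222665), a cluster that is highly expressed in mouse embryonic stem cells. It was 5574 bp wide, with 8.46 in asynchronous and 5.86 in mitotic cells (log2 M/A -0.53), 9.95 kb from the nearest HSF2 site and 363.5 kb from the nearest SOX2 site.

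Among far sites with at least the median signal of all HSF1-only sites, the largest decreases were at 3 sites of similar level. The site in an exon of Xkrx, chrX:134149824-134150351, went from 39.3 to 8.35 (log2 M/A -2.23), an intronic site in Pxylp1, chr9:96852592-96853200, from 38.7 to 8.94 (-2.11), and an intergenic site 40.25 kb from Stt3b, chr9:115350671-115351171, from 36.3 to 8.75 (-2.05). They were 501 to 609 bp wide. No other copy was found, but 63.3%, 58.8% and 38.3% of their bases were repeat, which the search left out. Sites nearest to Bdkrb2 and Dpp6 went from 7.09 to 1.85 (-1.94) and from 9.84 to 3.12 (-1.66). In the other direction, a site 3.60 kb from the start of Notch4, a Notch receptor gene, had 2.43 in asynchronous and 5.89 in mitotic cells (1.28; chr17:34559451-34560671). This is by the median mean signal of all 515 sites, 4.09, and weaker far sites were not ranked. The next 3 by that limit, nearest to Tle4, AU018091 and Ubxn2a, had 0.15, 0.07 and 0.04, and the site nearest to Afdn had -0.04.

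The weakest far HSF1-only sites had the smallest median decrease of their quartiles, whereas the weakest of the other far HSF1 sites had the largest of theirs. From the weakest to the strongest quartile of mean signal, the median log2 M/A of far HSF1-only sites was -0.27 (-0.59 to 0.01), -0.66, -0.65 and -0.77 (-0.90 to -0.68). For all other far HSF1 sites, in quartiles of their own, it was -0.72, -0.65, -0.60 and -0.55. The quartiles lay at unlike levels, with a median mean signal in the weakest of 1.04 for HSF1-only sites and 1.85 for the others. The second HSF1-only quartile, at a median of 2.17, was nearer in level to the weakest of the others and had a similar ratio. Near coding starts both had a similar course, from -0.52 to -0.65 for HSF1-only sites and from -0.50 to -0.68 for the others. The interquartile range of the weakest far HSF1-only sites was 1.16, against 0.60 for the strongest. Mean signal and log2 M/A share the same values, so this is a description. Without multi-copy sites the far HSF1-only quartiles were -0.22, -0.45, -0.70 and -0.66. Those of the other far HSF1 sites were then -0.72, -0.69, -0.58 and -0.59. In neither class did the strongest quartile continue the course of the weaker ones.

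Of the 510 HSF1-only sites with a sequence, 70 held a heat shock element (13.7%, Wilson 95% interval 11.01 to 16.98), and 5 sites on unplaced scaffolds had none to search. The share was 10.8% near a coding start (23 of 212) and 15.8% far (47 of 298), against 4.48% and 3.19% of windows of equal width 2 kb away. With 4 inverted units, 15 far and 2 near sites had a match and no flanking window did. Sites shared with HSF2 had an element more often far from a start, at 31.9% with HSF2 alone and 32.3% with both factors, while far sites with SOX2 alone had 8.0%. Sites shared with HSF2 were wider, with medians of 2079 bp with HSF2 alone and 2494 bp with both against 1639 bp. With overlapping matches counted once as a run, far HSF1-only sites had 0.117 runs per kb of sequence, far sites with HSF2 alone 0.135 and those with both 0.121. The site nearest to Arglu1 held 10 of the 64 far HSF1-only runs, and without it the value was 0.0996 per kb. With every match counted, 88 at far HSF1-only sites, the values were 0.162, 0.174 and 0.124. The median distance of a match from the middle of its site was 234 bp near and 230.25 bp far. In all, 8 sites, all of them far, had 2 or more separate runs.

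Elements lay mostly in the weaker sites. From the weakest to the strongest quartile, 22, 21, 4 and 0 far sites and 12, 6, 4 and 1 near sites had one. The other HSF1 sites also had fewer elements at higher signal, with 34.5%, 22.3%, 19.6% and 6.85% far from a start and 19.4%, 13.5%, 11.04% and 9.03% near one. Without multi-copy sites the other far HSF1 sites had 36.7%, 24.4%, 18.5% and 15.8%, so that the strongest quartile was 15.8% in place of 6.85%. The 47 far sites with an element had a median signal of 2.02 in asynchronous and 1.20 in mitotic cells, against 3.97 and 2.76 for the 251 without. Their median log2 M/A was -0.55 (-0.83 to -0.32) and that of the others -0.65 (-0.72 to -0.55), and near a start it was -0.59 and -0.61. Signal was thus lower at sites with an element, while the ratio of the phases was alike within these intervals. Without multi-copy sites the shares of far HSF1-only sites were 28.8%, 30.5%, 15.3% and 1.69%, so that the second quartile was no lower than the first, and the next was 15.3% in place of 5.48%.

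**Figure D5:**
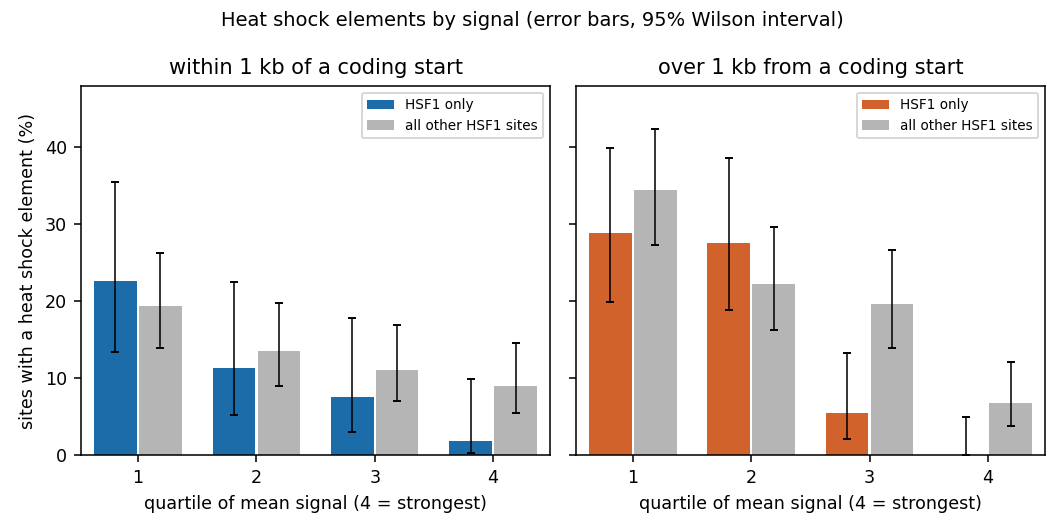
Share of sites with a heat shock element (y, %) by quartile of mean signal (x, 4 the strongest) for HSF1-only sites (coloured) and all other HSF1 sites (grey), near (left) and far (right) from a coding start, with 95% Wilson intervals over sites. Among far HSF1-only sites the share goes from 28.9% in the weakest quartile to 0 of 73 in the strongest.

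The exception was St13, with an element at 53.8 and 36.7. After it, the sites with an element and the highest signal were at Eif4a2, at Polr2a, the gene of the largest RNA polymerase II subunit, with 8.26 and 5.47, and at Rnf41, a ubiquitin ligase gene, with 8.17 and 5.33. Dnajb5 followed, then Fbxl14 with 4.81 and 4.71, Invs and Erp44, the genes of a cilium protein and of a chaperone of the endoplasmic reticulum, with 5.29 and 3.52, the far site nearest to Adgrl2 with 5.50 and 3.09, Proca1 with 5.87 and 2.39, and Gm49416 with 4.11 and 3.94. Fbxl14 (log2 M/A -0.03) and Gm49416 (-0.06) had nearly equal signal in both phases, and Proca1 (-1.30) the lowest ratio of the 10. Of the other sequences shown above, the far sites nearest to Prdx6 and Gpr161 had 5.44 and 2.45, and 5.01 and 0.98.

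The 2 position classes differed in base composition. Median GC content was 57.3% near a coding start and 47.7% far, and the observed over expected ratio of CpG was 0.67 and 0.32, against 0.19 to 0.20 in the flanking windows. A median of 9.87% of a near site and 27.3% of a far site was masked as repeat, against 23.8 to 29.5% in the windows. The SP/KLF box GGGCGG was found in 91.0% of near sites and 47.99% of far sites, against 19.1% and 23.0% of windows. An ETS motif was found in 13.7% and 3.36%, against 2.59% and 1.51%, and an NRF1 motif in 12.7% and 5.70%, against 6.37% and 3.19%. TATAAA was found in 42.9% of near sites, below the 69.6% of their windows. CCAAT, the NF-Y box, was as frequent in sites (83.0% and 82.6%) as in windows (85.4% and 84.9%), as was the octamer motif (7.08% and 15.4%, windows 8.02% and 13.4%). TGACTCA of AP-1 was found in 21.2% and 22.5%, against 24.5% and 28.02% of windows. The E-box CACGTG was found in 22.6% and 25.8% (windows 25.2% and 22.3%), a YY1 motif in 15.1% and 13.8% (windows 10.4% and 12.4%), and the ZNF143 motif in 4 near sites and no far one. All motifs were searched on both strands and may overlap each other.

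By position, 13 of the near sites lay 1 to 1000 bp from a coding start and the others contained one. Of the far sites, 188 had their middle between genes, 87 in an intron and 23 in an exon, and 35 lay within 1 kb of the start of another kind of transcript. The near sites closest to the limit were at Kansl1 and Pik3ip1, 857 and 997 bp away, with 0.29 and 13.1 in asynchronous cells and 0.46 and 8.87 in mitotic cells. The closest outside were at B430305J03Rik and Setd6, 1138 and 1342 bp away, with 9.38 and 5.88 in asynchronous and 7.64 and 3.41 in mitotic cells. An HSF1-only site nearest to Mrfap1 lay 43 bp from a listed SOX2 site (2.75 and 1.56), and the smallest overlap that kept a site out was 14 bp, near Snx5 (5.03 and 3.40). In all, 22 HSF1-only sites had an HSF2 or SOX2 site within 1 kb. The median distance to the nearest HSF2 site was 168.2 kb near a coding start and 245.1 kb far, and to the nearest SOX2 site 25.3 and 42.5 kb.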

How the data were processed

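The authors aligned CUT&Tag reads to mm10 with Bowtie2, kept PCR duplicates, scaled coverage by the reads of a Drosophila spike-in (dm6) and called HSF1 and HSF2 sites with SEACR against IgG, with both phases combined. SOX2 sites came from the literature. The deposited values are this coverage signal, averaged over each site and over 2 libraries per phase by the authors. Read totals of the HSF1 libraries were not analysed here, so the depth behind each value is not given. No column of individual libraries was used.

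The HSF1-only sites, the 12 gene lists and the motifs were chosen with earlier results of these data known. Log2 M/A was computed without a pseudocount. Medians have 95% order-statistic intervals and shares Wilson intervals, which cover variation over sites only. Starts were those of GENCODE M21 basic protein-coding transcripts, compared with the nearest edge of a site, and sites are named by the nearest start. Sites named were the 10 strongest of each position class, the 5 highest and 5 lowest log2 M/A per class among sites at or above the median mean signal, up to 4 sites per list, and the 10 strongest with a heat shock element. Some sites that this rule names are not reported here. Sequences are from GRCm38.p6 of RefSeq, the same build as mm10. Other copies were sought with BLAST+ 2.17.0 (megablast) on chromosomes 1 to 19, X and Y, with repeats masked. Tables were made with Python 3.11.15, pandas 2.3.3, numpy 2.4.6 and SciPy 1.17.1, and the functions were tested on simulated data. Alternatives were other pseudocounts, filters, centring, memberships, distances and element definitions.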

Additional observations from a re-analysis of the deposited data

How the results depend on the processing

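No paired analysis was made because the values used here give each phase as 1 average per site, and for the same reason no replicate was left out. Of 63 recomputed values, 47 stayed within the 95% interval of the main value (within 1.5 times for the number of sites). The 3 medians of log2 M/A (all HSF1-only sites, near, far) were -0.49, -0.50 and -0.47 with a pseudocount of 1, and -0.0252, -0.00161 and -0.0380 after centring on the weakest quartile of all HSF1 sites, whose own median was -0.59. The other signal pair that accompanies the site list gave -2.33, -2.19 and -2.47. The first value of that pair, taken as asynchronous, had a median of 4.44, close to the 4.96 of the main pair over HSF1-only sites. The second value, taken as mitotic, had a median of 0.874, well below the main 3.17. The 2 pairs thus differed mainly in the value taken as mitotic, and the cause was not tested. As the log2 ratio of mean signals, the values for all and far sites were -0.80 and -0.87, since the strongest far sites weigh most there. When only an overlap of at least 50% of the site excluded it, 812 sites qualified and 33.7% lay near a coding start. The share with a heat shock element was 3.33% with 4 units, 61.4% with 2 units (58.0% in flanking windows) and 7.65% in the central 500 bp. Leaving out multi-copy sites or chromosome 6, both added after the data were examined, moved none of the 6 results outside its interval. After centring the 95% intervals of all 3 medians included 0, so no direction was left relative to the weakest HSF1 sites. That quartile includes HSF1-only sites, so centring removes a decrease shared by HSF1 sites and cannot show whether there was one. Under the other alternatives run each median stayed below 0. Read totals were not analysed here and replicates were averaged, so no limit of detection is given.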

Other observations

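HSF1-only sites were unevenly spread over the chromosomes. Chromosome 11 had 68 (0.56 per Mb), chromosome 8 had 48 (0.37 per Mb) and chromosome 6 had 44 (0.29 per Mb), whereas the other chromosomes had 0.03 to 0.26 per Mb. The other HSF1 sites were also densest on chromosome 11 (1.43 per Mb) and chromosome 8 (1.08 per Mb), followed by chromosome 7 (0.61 per Mb) and chromosome 6 (0.58 per Mb). The 44 sites of chromosome 6 were weak, with a median signal of 2.00 in asynchronous and 1.70 in mitotic cells. Their log2 M/A had a median of -0.31 (-0.64 to -0.13 as the 95% interval), and 32 of them lay far from a coding start. On the X chromosome HSF1-only sites outnumbered the others, 13 against 10. No explanation was tested.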
